A study of Mus musculus with 24 samples.

Results

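The Myt1 zinc finger family consists of St18, Myt1 and Myt1l, and its transcripts were followed in mouse neural stem cells as they left the cell cycle and began to make neurons. The members were the probe sets annotated with 1 of these symbols. St18 was measured by probe set 10344679, Myt1 by 10479698 and Myt1l by 10395074, so the family gave 3 genes and 3 probe sets of 21072 genes and 28350 probe sets on the array. All 3 probe sets carry cross-hybridisation code 1, read here as unique after the manufacturer's usage. The cells came from the subventricular zone, a layer beside the lateral ventricle that makes neurons and glia after birth. The cultures of 3 mice labelled wild-type (818, 862, 870) and 3 labelled Mll1-deleted (489, 814, 858) had been passaged in a growth medium with serum, EGF, FGF, N2 supplement and pituitary extract. For differentiation they were moved to a medium with N2 supplement and pituitary extract but without serum, EGF or FGF. Each culture gave 1 array while growing (day 0) and 1 on each of days 1, 2 and 4, which makes 8 groups of 3 arrays and 24 arrays in all. The ages of the mice, the exons removed and the Cre driver are not given in the labels.

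The family shares clusters of CCHHC zinc fingers, which bind DNA at an AAAGTT core, and its proteins recruit corepressor complexes with histone deacetylases or with the demethylase Kdm1a. In frog embryos Myt1 lets cells become neurons against Notch inhibition, and in mouse neural progenitors it represses Notch targets such as Hes1. Myt1 is also made by oligodendrocyte precursors, Myt1l keeps non-neuronal genes silent in neurons and is used with other factors to turn fibroblasts into neurons, and St18 (also called Myt3) is found in immature neurons and in pancreatic endocrine cells. Mll1, whose current symbol is Kmt2a, is a histone H3 lysine 4 methyltransferase.

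The promoters of 2 members were read from RefSeq (build GRCm38.p6), which lists 3 start windows for Myt1 and 5 for Myt1l. Each window holds the 250 bases before a start, on the + strand. The windows below are shown because they hold the family's own core, an octamer bound by POU factors, or the neurogenic E-box, and capitals mark that match. The arrays do not show which start was used.
Myt1, chr2:181796057-181796306: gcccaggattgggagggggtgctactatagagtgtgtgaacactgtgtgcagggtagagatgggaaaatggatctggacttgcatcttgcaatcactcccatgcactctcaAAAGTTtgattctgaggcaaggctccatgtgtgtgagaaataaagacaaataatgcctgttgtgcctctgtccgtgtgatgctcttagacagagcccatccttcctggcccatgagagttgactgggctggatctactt
Myt1l, chr12:29528134-29528383: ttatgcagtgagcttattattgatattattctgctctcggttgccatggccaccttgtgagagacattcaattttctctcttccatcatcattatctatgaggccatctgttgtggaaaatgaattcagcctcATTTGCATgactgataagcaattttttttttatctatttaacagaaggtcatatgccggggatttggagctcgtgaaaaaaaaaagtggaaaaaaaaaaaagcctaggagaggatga
Myt1l, chr12:29534655-29534904: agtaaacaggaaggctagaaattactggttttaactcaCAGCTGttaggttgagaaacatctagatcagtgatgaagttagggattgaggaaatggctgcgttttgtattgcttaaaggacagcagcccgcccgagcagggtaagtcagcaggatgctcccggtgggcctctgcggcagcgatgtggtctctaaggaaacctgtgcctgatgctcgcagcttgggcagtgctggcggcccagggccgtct

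The motifs were chosen after these windows had been read, and each was searched on both strands. The family core AAAGTT began 139 bases before the start in the Myt1 window, and 12.4% of all 32851 windows of this length hold it. The octamer ATGCAAAT lay on the other strand of the first Myt1l window, beginning at -117, and is in 1.6% of windows. The E-box CAGCTG began at -212 in the other Myt1l window shown and is in 13.0% of windows. Each of these motifs was in only 1 window among the 3 of Myt1 and 5 of Myt1l. The RBPJ core GTGGGAA, the site of the Notch effector and present in 5.42% of windows, was in no window of Myt1 or Myt1l.

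Array medians ranged from 75.6 to 87.1. A gene counted as near the floor where its group mean was under the mean lower quartile of the arrays. No member was near the floor in any group by this rule. St18 lay just above the floor (24.6 to 27.2 over the groups) on wild-type day 0 (31.2) and Mll1-deleted days 0 and 1 (32.7 and 33.5). In these groups 26.4%, 27.1% and 27.8% of genes were below St18, and on Mll1-deleted days 2 and 4 31.6% and 32.6% were. Its changes from day 0 start from these low levels. Myt1 (41.0 in wild-type and 39.8 in Mll1-deleted cultures) and Myt1l (49.6 and 49.7) also lay under the array medians on day 0. There 32.5% and 31.2% of genes were below Myt1, and 37.3% and 36.8% below Myt1l. Myt1l was still at 51.5 on Mll1-deleted day 2. The 9 neural stem cell markers were all above the floor on day 0. Their summed intensities were 36951 to 39828 in wild-type and 29291 to 35307 in Mll1-deleted cultures. Kmt2a RNA was higher in the Mll1-deleted cultures on day 0 by 0.48 ± 0.13 on the log2 scale (adjusted p = 0.0175) but missed the threshold when mouse 489 (adjusted p = 0.139), 814 (0.124) or 870 (0.0839) was left out, and it did not pass the test on the other days. Because the removed exons and the positions of the probes are unknown, this does not check the deletion. In RNA of whole cultures, fewer cells of a type and less RNA per cell cannot be told apart.

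In wild-type cultures all 3 members were higher after growth factors were withdrawn. St18 and Myt1 were both up from day 1 through day 4 and highest on day 2 in every wild-type mouse. The fall from day 2 to day 4 was called for St18, and that of Myt1 (-1.02) missed the threshold (adjusted p = 0.0728). Myt1l had risen by day 2 but not by day 1. By day 1, 2 of 3 members had risen (St18 and Myt1), where 25.5% of all genes passed the test in either direction. On day 2 and on day 4 all 3 were higher than on day 0, where 33.7% and 37.5% of genes passed. Between days 1 and 2, 2 of 3 rose (St18 and Myt1l), against 4.96% of genes. Between days 2 and 4, 1 of 3 fell (St18), against 12.2% of genes. The test throughout was limma's moderated test on log2 intensity, 2-sided and adjusted by Benjamini-Hochberg over all genes, with 0.05 as the threshold for a call on the adjusted p. Values after ± are standard errors of a log2 difference unless SD is written, and each group has n = 3 mice.

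In Mll1-deleted cultures only Myt1 passed the test before day 4. It was the 1 member of 3 called on day 1, where 12.4% of genes passed, and again the only one on day 2, where 23.3% passed. On day 4 Myt1 and Myt1l, 2 of 3, were above day 0, against 29.6% of genes. From day 1 to day 2 limma called 0 of 3 members, where 0.389% of genes passed. Of the 3, 1 (Myt1) had an unadjusted p under 0.05 there and was called with the mouse as a replicate block (adjusted p = 0.019). From day 2 to day 4, 1 of 3 rose (Myt1l), against 14.9% of genes.

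St18 reached its highest levels in wild-type cultures on day 2. Its intensity in the wild-type mice 818, 862 and 870 was 29.0, 32.2 and 32.4 on day 0. On day 1 it was 114, 49.4 and 74.5, and on day 2 it was 221, 148 and 171. On day 4 it was 45.2, 57.2 and 69.7. Every wild-type mouse was highest on day 2, and no array of days 1, 2 or 4 overlapped those of day 0.

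In the Mll1-deleted mice 489, 814 and 858, St18 was 29.2, 31.8 and 37.1 on day 0 and 31.6, 34.2 and 34.7 on day 1. It was 36.5, 40.7 and 50.0 on day 2 and 56.6, 43.7 and 38.2 on day 4. These 12 arrays stayed within the range of wild-type days 0 and 4, and none came near the wild-type values of day 2. Mouse 858 was the highest of the 3 on day 2 and the lowest on day 4.

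The fitted rise of St18 in wild-type cultures was 1.26 ± 0.22 (log2) on day 1 (2.4-fold, adjusted p = 1.7e-04) and 2.51 ± 0.22 on day 2 (5.69-fold, adjusted p = 1.8e-08). Among all genes the day 2 rise ranked 61 from the top. St18 then fell by 1.65 ± 0.22 to day 4 (adjusted p = 5.4e-05), rank 58 from the bottom, and still lay 0.86 ± 0.22 above day 0 (adjusted p = 0.00354), which without mouse 870 was 0.74 (adjusted p = 0.068). In Mll1-deleted cultures the change from day 0 was 0.04 ± 0.22 on day 1, 0.37 ± 0.22 on day 2 (95% interval -0.09 to 0.83, adjusted p = 0.267) and 0.49 ± 0.22 on day 4 (adjusted p = 0.106, or 0.0345 without mouse 818). By mean intensity the groups ran from wild-type day 2 (179.8 ± 37.3, SD) through wild-type day 1 (79.2 ± 32.5), wild-type day 4 (57.4 ± 12.3) and Mll1-deleted day 4 (46.2 ± 9.45) to Mll1-deleted day 2 (42.4 ± 6.91), with the remaining 3 groups between 31.2 and 33.5. Of these neighbours, wild-type day 2 and day 1 differed in the test, and the arrays of the next pairs down to Mll1-deleted day 2 overlapped. Mll1-deleted days 2 and 1 did not overlap but missed the threshold (0.33 ± 0.22, adjusted p = 0.595).

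Myt1 rose in both genotypes. In the wild-type mice 818, 862 and 870 its intensity was 35.8, 47.0 and 40.2 on day 0 and 320.1, 241 and 252 on day 1. It reached 847, 566 and 527 on day 2 and was 361, 290.3 and 289 on day 4. Each wild-type mouse was highest on day 2, and the day 4 arrays lay below every day 2 array.

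In the Mll1-deleted mice 489, 814 and 858, Myt1 was 48.3, 31.8 and 39.3 on day 0. On day 1 it was 97.5, 69.1 and 307, on day 2 it was 223, 242 and 516, and on day 4 it was 338, 353 and 446.0. Mouse 858 stood apart on days 1 and 2, at the level of the wild-type mice on day 1 and just under the lowest of them on day 2. The other Mll1-deleted mice were lower than all wild-type mice on both days and were higher on day 4 than on day 2.

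Myt1 was up in wild-type cultures by 2.72 ± 0.37 on day 1 (adjusted p = 7.9e-06), 3.96 ± 0.37 on day 2 (15.5-fold, adjusted p = 3.2e-08) and 2.94 ± 0.37 on day 4 (adjusted p = 1.0e-06). The day 2 rise ranked 6 among all genes. In Mll1-deleted cultures it was up by 1.70 ± 0.37 (adjusted p = 0.00295), 2.95 ± 0.37 (7.73-fold, adjusted p = 6.4e-06) and 3.26 ± 0.37 (9.59-fold, adjusted p = 8.0e-07) on the same days, ranks 50, 18 and 27. The day 1 call was lost with only the 6 arrays compared (1.70, adjusted p = 0.101). The step from day 1 to day 2 in wild-type cultures was 1.23 ± 0.37 (adjusted p = 0.0535) and that from day 2 to day 4 was -1.02 ± 0.37 (adjusted p = 0.0728). With the mouse as a replicate block both were called (adjusted p = 0.00691 and 0.013). Both were also called without mouse 814 (0.0352 and 0.0497) and without 858 (3.5e-04 and 0.00101). The wild-type values stay the same there, while the standard error, pooled over all groups, went from 0.37 to 0.33 and 0.19. The step of Mll1-deleted cultures from day 1 to day 2 was 1.25 ± 0.37 (adjusted p = 0.137), and 1.50 without mouse 858 (adjusted p = 0.00441).

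By mean intensity, Myt1 ran from wild-type day 2 (647 ± 175, SD) through Mll1-deleted day 4 (379 ± 58.4), Mll1-deleted day 2 (327 ± 164), wild-type day 4 (313 ± 41.2) and wild-type day 1 (271 ± 42.9) to Mll1-deleted day 1 (158 ± 130.0). Both groups of day 0 were lowest, at 41.0 ± 5.67 in wild-type and 39.8 ± 8.28 in Mll1-deleted cultures. From Mll1-deleted day 4 down to Mll1-deleted day 1, the arrays of neighbours in this order overlapped. Wild-type day 2 lay above Mll1-deleted day 4 without overlap, a difference that missed the threshold (adjusted p = 0.174). The SD of Mll1-deleted day 1 was the largest of the 8 groups relative to its mean.

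Myt1l had the latest course. In the wild-type mice 818, 862 and 870 its intensity was 50.3, 49.6 and 48.9 on day 0 and 53.6, 51.1 and 48.2 on day 1. On day 2 it measured 127, 75.2 and 110.5, then 160.3, 115 and 101 on day 4. The arrays of days 0 and 1 lay together, and those of days 2 and 4 lay above all of them.

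In the Mll1-deleted mice 489, 814 and 858, Myt1l was 52.5, 47.9 and 48.8 on day 0, 44.0, 45.1 and 56.1 on day 1, and 48.2, 51.5 and 54.8 on day 2. On day 4 it was 72.7, 78.2 and 67.2. The first 3 samplings overlapped, and the day 4 arrays were above them in every mouse but below every wild-type array of day 4. Mouse 858, the highest for Myt1 on day 4, was the lowest for Myt1l.

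Wild-type cultures raised Myt1l by 1.04 ± 0.16 on day 2 (2.05-fold, adjusted p = 2.4e-05) and by 1.31 ± 0.16 on day 4 (2.48-fold, adjusted p = 7.9e-07), while day 1 was 0.04 ± 0.16 (adjusted p = 0.907). Mll1-deleted cultures were at 0.05 ± 0.16 on day 2 (95% interval -0.28 to 0.38) and at 0.55 ± 0.16 on day 4 (1.46-fold, adjusted p = 0.0122). Without mouse 489 that day 4 value was 0.58 (adjusted p = 0.0628), and without 814 it was 0.47 (0.137), neither of them called. Their step from day 2 to day 4, 0.50 ± 0.16 (adjusted p = 0.0394), was lost without 489 (0.45, adjusted p = 0.264), 814 (0.44, 0.229) or 858 (0.60, 0.0636). By mean intensity the order was wild-type day 4 (126 ± 31.0, SD), wild-type day 2 (104 ± 26.4), Mll1-deleted day 4 (72.7 ± 5.52) and then the other 5 groups between 48.4 and 51.5, which overlapped. Wild-type days 4 and 2 differed by 0.28 ± 0.16 (adjusted p = 0.31), and wild-type day 2 and Mll1-deleted day 4 overlapped.

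**Figure D1:**
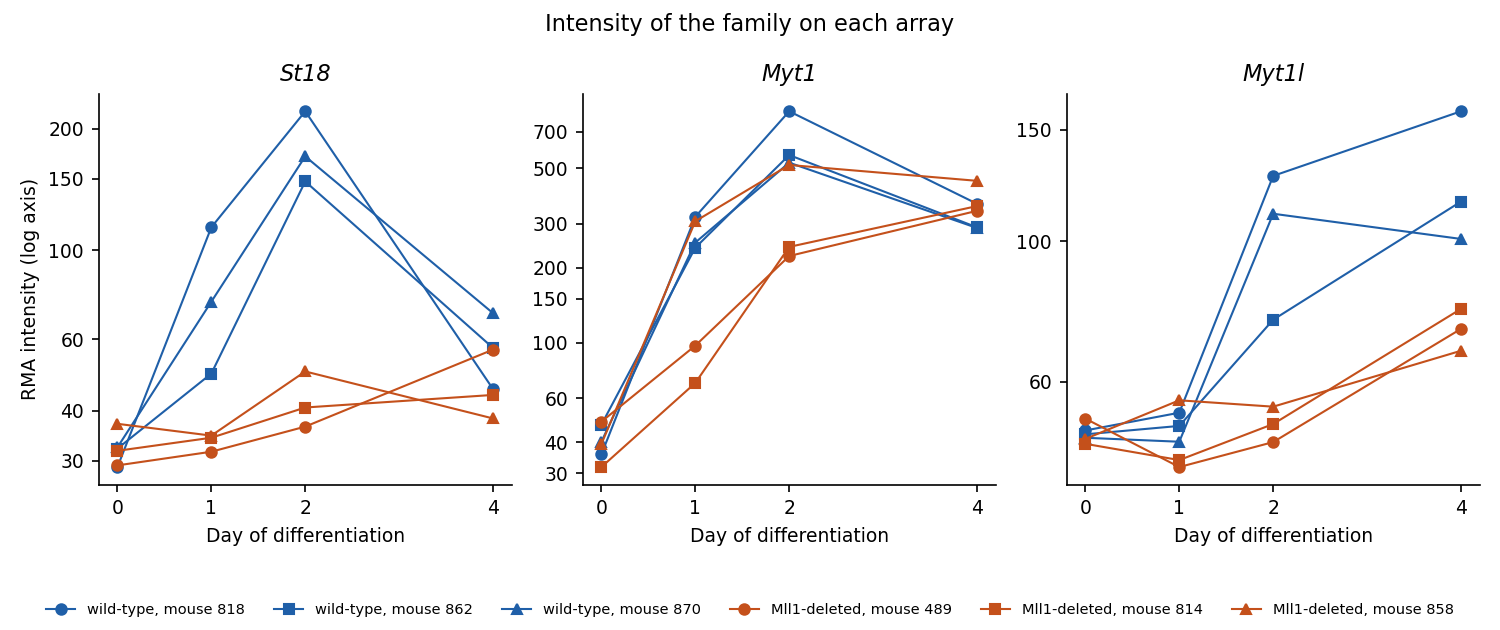
Intensity (log axis) of St18, Myt1 and Myt1l on each array against the day of differentiation, 1 line per mouse, wild-type in blue and Mll1-deleted in orange. St18 peaks at 148 to 221 on wild-type day 2 against 36.5 to 50.0 in Mll1-deleted cultures, and the Myt1 line of mouse 858 runs with the wild-type mice on day 1.

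Compared on the same day, no member passed the test for genotype while the cells were growing, and St18 and Myt1l passed it on day 2. On day 0 limma called 0 of 3 members, and 0 had an unadjusted p under 0.05, where 10.1% of all genes passed. The differences were 0.06 ± 0.23 for St18, -0.05 ± 0.35 for Myt1 (95% interval -0.77 to 0.67) and 0.00 ± 0.16 for Myt1l. On day 1, 1 of 3 members was lower in Mll1-deleted cultures, St18 by -1.16 ± 0.23 (2.23-fold lower, adjusted p = 0.00206), where 7.45% of genes passed. On day 2, 2 of 3 were lower, where 8.74% passed. St18 was at -2.08 ± 0.23 (4.22-fold lower, adjusted p = 3.1e-06), rank 16 from the bottom of all genes, and Myt1l at -0.98 ± 0.16 (1.98-fold lower, adjusted p = 2.7e-04). On day 4, 1 of 3 was lower, Myt1l by -0.76 ± 0.16 (adjusted p = 0.00408), where 6.46% of genes passed, and St18 was at -0.31 ± 0.23 (95% interval -0.79 to 0.17, adjusted p = 0.529).

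For Myt1 the genotype difference depended on the mice included. It was -1.08 ± 0.35 on day 1 (adjusted p = 0.0627) and -1.06 ± 0.35 on day 2 (adjusted p = 0.0613), with overlapping arrays on day 1 and none on day 2. Without mouse 858 it was -1.71 (adjusted p = 9.9e-06) and -1.44 (adjusted p = 8.5e-05), and its standard error went from 0.35 to 0.21. Leaving out another mouse took it as far as -0.64 on day 1 and -0.84 on day 2. Adjusted p then reached 0.496 and 0.319. With all mice and quantile normalisation, day 2 also passed (-1.08, adjusted p = 0.0487). On day 4 it was 0.27 ± 0.35 (95% interval -0.45 to 0.99), and the arrays of the genotypes overlapped.

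**Figure D2:**
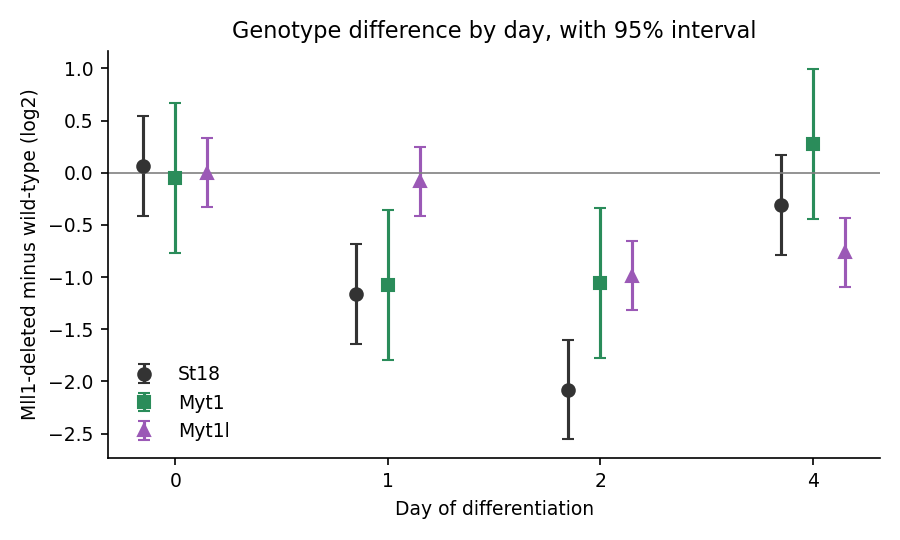
Fitted difference between Mll1-deleted and wild-type cultures (log2, points) with its 95% interval (bars) for each member on days 0, 1, 2 and 4. On day 0 the 3 points lie between -0.05 and 0.06, on day 2 St18 is at -2.08, and on day 4 only the interval of Myt1l lies below 0.

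The change from day 0 was also compared between the genotypes. To day 1 the change differed for 1 of 3 members, St18 by -1.22 ± 0.31 (adjusted p = 0.0382), where 2.43% of genes passed. It missed the threshold when mouse 489 (-1.26, adjusted p = 0.135), 814 (-1.26, 0.169), 818 (-0.87, 0.155), 858 (-1.15, 0.0526) or 870 (-1.25, 0.159) was left out. To day 2 it differed for 2 of 3, where 4.8% passed. St18 was at -2.14 ± 0.31 (adjusted p = 2.5e-04), and stayed called without any single mouse, with values from -2.29 to -1.93. Myt1l was at -0.99 ± 0.23 (adjusted p = 0.0115), which was not called without 489 (-0.90, 0.114), 814 (-1.01, 0.0611) or 870 (-0.92, 0.0749). To day 4 it differed for 1 of 3, Myt1l by -0.77 ± 0.23 (adjusted p = 0.048), where 5.83% passed, and leaving out any of the 6 mice lost that call (-0.90 to -0.58, adjusted p = 0.0656 to 0.213).

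For Myt1 the change differed by -1.02 ± 0.52 to day 1 (adjusted p = 0.402) and by -1.01 ± 0.52 to day 2 (adjusted p = 0.334), and without mouse 858 by -1.66 (0.00167) and -1.39 (0.00533). The standard error went from 0.52 to 0.30 there. Leaving out any other mouse gave no call, with values as weak as -0.68 and -0.63. Within the Mll1-deleted mice the change of Myt1 to day 1 was 1.01 in mouse 489, 1.12 in 814 and 2.97 in 858, against 2.36 to 3.16 in the wild-type mice. Mouse 858 was thus inside the wild-type range and the others outside it.

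From day 1 to day 2 limma called 0 of 3 members for a difference in change, where 0.138% of genes passed. There 2 of 3 (St18 and Myt1l) had an unadjusted p under 0.05, and Myt1l was called with the mouse as a replicate block (-0.90, adjusted p = 0.0335). From day 2 to day 4 it was 1 of 3, St18 by 1.77 ± 0.31 (adjusted p = 0.0415), where 0.0285% of genes passed. Over this interval it fell in wild-type cultures and was at 0.12 ± 0.22 in Mll1-deleted ones (95% interval -0.34 to 0.58). Leaving out mouse 489 (1.51, adjusted p = 0.45), 814 (1.77, 0.11), 818 (1.45, 0.103) or 870 (1.95, 0.211) ended the call. Myt1 was at 1.33 ± 0.52 (adjusted p = 0.495), and at 1.59 without mouse 858 (adjusted p = 0.0252). Leaving out any other mouse gave no call for Myt1 (adjusted p up to 0.998).

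With each mouse taken as its mean over the 4 days, 2 of 3 members were lower in the Mll1-deleted mice, where 7.3% of genes passed. St18 differed by -0.87 ± 0.09 (adjusted p = 0.00141), with mouse means of 5.22, 5.22 and 5.31 against 5.92 to 6.24 on the log2 scale. Myt1l differed by -0.46 ± 0.09 (adjusted p = 0.0224), which was not called without 489 (-0.44, 0.0833), 814 (-0.45, 0.0654) or 870 (-0.49, 0.0639). For both genes every Mll1-deleted mouse lay below every wild-type mouse. Myt1 differed by -0.48 ± 0.22 (adjusted p = 0.259), and by -0.77 without mouse 858 (adjusted p = 0.00265). Leaving out any other mouse gave no call for Myt1, with values as weak as -0.28.

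A later Mll1-deleted sampling was set beside an earlier wild-type one. Between Mll1-deleted day 2 and wild-type day 1, 1 of 3 members differed, St18 by -0.83 ± 0.23 (adjusted p = 0.0242), where 8.38% of genes passed. It was not called without mouse 489 (-0.73, adjusted p = 0.137), 814 (-0.81, 0.102), 818 (-0.53, 0.126) or 870 (-0.84, 0.0978). Myt1 was at 0.17 ± 0.35 (95% interval -0.55 to 0.89) and Myt1l at 0.01 ± 0.16 (95% interval -0.32 to 0.34). Between Mll1-deleted day 4 and wild-type day 2, 2 of 3 were lower, where 13.4% passed. St18 was at -1.96 ± 0.23 (3.89-fold lower, adjusted p = 6.2e-06) and Myt1l at -0.49 ± 0.16 (adjusted p = 0.0449), the latter lost without 489 (-0.49, 0.135), 814 (-0.54, 0.0822), 818 (-0.33, 0.202), 858 (-0.43, 0.131) or 870 (-0.43, 0.14). Myt1 was at -0.75 ± 0.35 there (adjusted p = 0.174), and at -0.87 without mouse 858 (adjusted p = 0.00849). Leaving out any other mouse gave no call for Myt1 (-0.88 to -0.54). No Mll1-deleted array at any sampling reached the wild-type range of St18 on day 2.

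**Figure D3:**
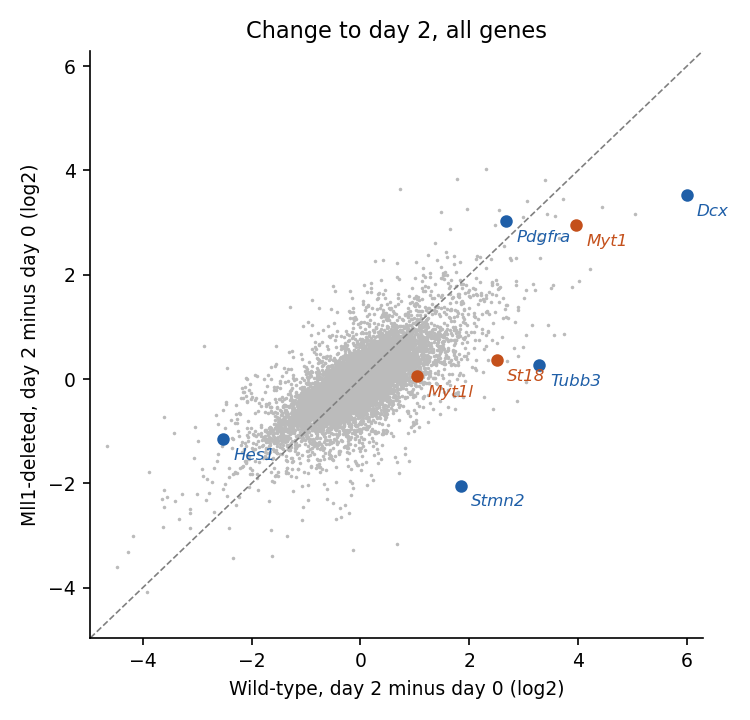
Fitted change from day 0 to day 2 (log2) of all 21072 genes in wild-type (x axis) and Mll1-deleted cultures (y axis), with the family in orange, 5 other named genes in blue and the line of equal change dashed. St18 lies at 2.51 and 0.37, Myt1 at 3.96 and 2.95 and Myt1l at 1.04 and 0.05, all 3 under the line. The difference in change was -2.14 for St18, -1.01 for Myt1 (not called) and -0.99 for Myt1l.

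Of 9 listed corepressor genes 8 were measured. On wild-type day 2, 1 was higher and 2 were lower than on day 0, with a median change of -0.07 against 0.06 over all genes, of which 33.7% passed. Rcor1, the CoREST scaffold that holds Kdm1a, fell by 0.79 ± 0.12 (adjusted p = 1.2e-05). By wild-type day 4, 5 of 8 were lower and 0 higher by limma, where 37.5% of genes passed, and 3 were lower without mouse 870. On Mll1-deleted day 2, where 23.3% passed, 3 were higher and 2 lower. The 3 became 1 without mouse 814 or 858 and 2 without 862 or 870, and the 2 became 0 without 489 or 814 and 1 without 818 or 862.

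Rcor2, a CoREST paralogue of neural progenitors, was the 1 of 8 that differed between the genotypes on day 2 (0.87 ± 0.14, adjusted p = 3.3e-04) and on day 4 (1.49 ± 0.14, adjusted p = 1.0e-06). Its mean intensities over the 4 days were 180.5, 285, 163 and 68.8 in wild-type and 103, 340.4, 297 and 193 in Mll1-deleted cultures. On both days Rcor2 was higher in the genotype in which Myt1l was lower. By its means, Rcor2 was lower in Mll1-deleted cultures on day 0 and higher on day 1, days on which Myt1l was not called. A link between Rcor2 and Myt1l was not tested.

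The list of Notch pathway and progenitor genes includes targets that the family is reported to repress, and 15 of its 16 genes were measured. On wild-type day 2, 5 were higher and 5 lower (median -0.35, against 0.06 over all genes and 33.7% passing). The Notch ligand Jag1 fell by 3.33 ± 0.31 (adjusted p = 4.0e-08) and the receptor Notch2 rose by 1.66 ± 0.18 (adjusted p = 2.4e-07). Between the genotypes on day 2, 8 of 15 were higher in Mll1-deleted cultures and 1 was lower (median 0.95, against -0.03 and 8.74%). The 8 became 4 without mouse 489, 814 or 870 and 3 without 818. On day 4, 4 of 15 were higher and 0 lower by limma (median 0.58, against 0.02 and 6.46%), and 2 without 489, 818 or 870.

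Hes1, the Notch effector that Myt1 represses, had mean intensities of 616, 171.5, 107 and 128 in wild-type cultures on days 0, 1, 2 and 4. In Mll1-deleted cultures they were 584, 282, 256 and 283. Hes1 fell in both, by 2.53 ± 0.21 to wild-type day 2 (adjusted p = 7.3e-09) and by 1.15 ± 0.21 to Mll1-deleted day 2 (adjusted p = 3.2e-04). It was higher in Mll1-deleted cultures by 1.25 ± 0.19 on day 2 (adjusted p = 1.1e-04) and by 1.14 ± 0.19 on day 4 (adjusted p = 3.7e-04). Its lowest group was wild-type day 2, the group in which St18 and Myt1 were highest. Mll1-deleted day 4 had higher means of both Myt1 (379) and Hes1 (283) than wild-type day 1 (271 and 171.5). Whether the family acted on Hes1 in these cultures was not tested.

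Dll1, a Notch ligand of committed progenitors, went from 116 on wild-type day 0 to 358 on day 1 and 141 on day 2. In Mll1-deleted cultures it went from 69.9 to 351 and stayed at 324 on day 2, a difference of 1.21 ± 0.19 between the genotypes (adjusted p = 2.4e-04). Id4, an inhibitor of helix-loop-helix factors, was the member that went the other way on day 2 (-0.87 ± 0.19, adjusted p = 0.00473), or -0.68 and not called without mouse 489 (adjusted p = 0.075).

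Among 15 proneural and reprogramming factors, 9 rose and 1 fell by wild-type day 2 (median 1.21, against 0.06 and 33.7%), and 7 rose in Mll1-deleted cultures (median 0.77, against 0.02 over all genes and 23.3% passing). Insm1, a zinc finger factor of neurogenic progenitors, rose by 2.12 ± 0.17 (adjusted p = 5.2e-09) and 1.63 ± 0.17 (adjusted p = 9.6e-07), and differed between the genotypes on day 2 by only 0.02 ± 0.17. The interneuron factor Dlx5 was lower in Mll1-deleted cultures on day 2 by -2.24 ± 0.39 (adjusted p = 5.7e-04). In all, 6 of 15 were lower on that day and 0 higher (median -0.14, against -0.03 and 8.74%). The 6 became 3 without mouse 489 and 2 without 818.

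Neuroblasts are the migrating immature neurons of this layer, and their markers were lower in Mll1-deleted cultures on day 2, as St18 and Myt1l were. Of 9 measured, 8 rose by wild-type day 2 (median 1.85, against 0.06 over all genes and 33.7% passing), and 4 rose and 1 fell in Mll1-deleted cultures (median 0.38, against 0.02 and 23.3%). Between the genotypes 8 of 9 were lower on day 2 (median -1.80, against -0.03 and 8.74%), and 8 or 9 were lower without any 1 mouse. Dcx, a microtubule protein, was lower by -2.99 ± 0.53 (adjusted p = 7.2e-04), the neuronal tubulin Tubb3 by -1.67 ± 0.32 (adjusted p = 0.00124) and the synaptic protein Nrxn3 by -1.85 ± 0.27 (adjusted p = 9.7e-05). Whether fewer neuroblasts account for the lower St18 and Myt1l was not tested. The summed intensity of the list on day 2 was 7088 to 10812 in wild-type and 1438 to 3454 in Mll1-deleted cultures. On day 0 it was 1349 to 1653 and 1626 to 2817. Tubb3 was higher in Mll1-deleted cultures on day 0 (1.34, adjusted p = 0.00661), but not called without mouse 814 (0.0664) or 870 (0.0853). The list median there stood at -0.64 to 0.04 relative to the wild-type mean of day 0, with Dcx near the floor. Changes of Mll1-deleted cultures from day 0 start from these levels. On day 4, 2 of 9 were lower (median -0.76, against 0.02 and 6.46%), 6 without mouse 858, 1 without 814 and 0 without 489, 818, 862 or 870.

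Mouse 858 was the Mll1-deleted mouse nearest to the wild-type mice on day 2 in this list as well as in Myt1. Its median neuroblast marker stood 0.88 (log2) above the wild-type mean of day 0 on day 2, against -0.05 in mouse 489, 0.05 in 814 and 1.70 to 2.42 in the wild-type mice. On day 4 it stood at 1.68, just above the wild-type mice at 1.53 to 1.66, and 489 and 814 at 0.48 and 0.97. Mouse 858 also had the highest St18 and Myt1l of the 3 on day 2, but the lowest of both on day 4. Its median proliferation gene on day 1 stood at -1.45, against -0.42 in 489, 0.02 in 814 and -1.31 to -0.58 in the wild-type mice. On day 2 that median was -1.13, between those of 489 (-1.36) and 814 (-0.86). Whether this bears on Myt1 was not tested.

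Oligodendrocyte markers were higher in Mll1-deleted cultures on day 4, when their Myt1 was at its highest mean. Of 15 measured, 11 rose and 0 fell from day 0 to Mll1-deleted day 4 by limma (median 1.50, against 0.06 over all genes and 29.6% passing). On that day 10 of 15 were higher than in wild-type cultures (median 1.25, against 0.02 and 6.46%), and 9 without mouse 858. Their summed intensity on day 4 was 8386 to 16843 in Mll1-deleted and 4208 to 5004 in wild-type cultures. Their median stood 2.50 above wild-type day 0 in mouse 858, 0.95 in 489 and 0.47 in 814, against 0.08 to 0.24 in the wild-type mice. Enpp6, a marker of newly formed oligodendrocytes, was near the floor in every group but Mll1-deleted day 4. The part of these cells in the level of Myt1 was not tested.

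Olig2, a transcription factor of this lineage, had wild-type means of 1562, 475, 364 and 321 in the order of the days. In Mll1-deleted cultures those means were 905, 1028, 911 and 948. The genotypes differed by 1.32 ± 0.16 on day 2 (adjusted p = 8.7e-06) and 1.56 ± 0.16 on day 4 (adjusted p = 2.2e-06). Pdgfra, the receptor of oligodendrocyte precursors, was higher on day 4 by 1.56 ± 0.31 (adjusted p = 0.00265). The wild-type cultures, which held the highest Myt1 levels on day 2, had Olig2 falling at the same time. This is the course of Olig2 only. On wild-type day 2 the median of the 15 listed markers stood between -0.05 and 0.24 relative to the wild-type mean of day 0. Their summed intensity, which includes Olig2, was 3836 to 4870, against 7589 to 7766 on wild-type day 0. Which cells held the Myt1 RNA was not tested.

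**Figure D4:**
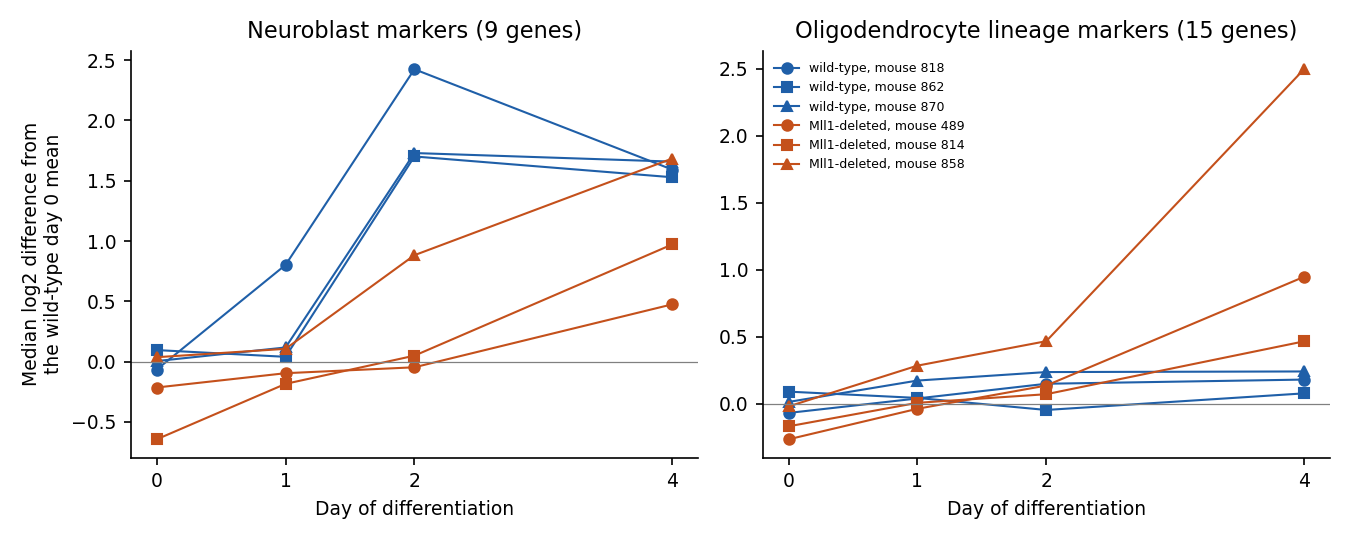
Median log2 difference from the wild-type mean of day 0 over 9 neuroblast markers (left) and 15 oligodendrocyte lineage markers (right) on each array against the day, 1 line per mouse, wild-type in blue and Mll1-deleted in orange. On day 2 the wild-type mice reach 1.70 to 2.42 on the left, and on day 4 mouse 858 reaches 2.50 on the right.

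Of 7 proliferation genes, 6 fell by wild-type day 1, where 25.5% of genes passed, and by limma 0 by Mll1-deleted day 1, where 12.4% passed. The 6 became 4 without mouse 818 and 3 without 862 or 870, and the 0 became 3 without 814. By day 2, 7 had fallen in wild-type (33.7% passing) and 5 in Mll1-deleted cultures (23.3%). The 7 became 4 without 870, and the 5 became 3 without 489. Between the genotypes 2 of 7 were higher in Mll1-deleted cultures on day 1 (median 0.38, against -0.03 and 7.45%), 5 without mouse 858 and 0 without 489, 814, 862 or 870. On day 2 limma called 0 (8.74% passing), and on day 4 it called 1 higher (median 0.73, against 0.02 and 6.46%), 2 without 858. The part of the cell cycle in the levels of the family was not tested. The 7 microglial markers had a summed intensity of 229 to 282 in all groups, with Aif1 and Itgam near the floor in every one. The 4 pancreatic endocrine genes (Pdx1, Ins2, Gcg and Isl1), markers of a tissue that also makes Myt1 and St18, summed to 104 to 187, and limma called 0 of them for genotype on day 2 or 4. Of the 7 astrocyte markers 4 rose and 1 fell by wild-type day 2 (33.7% passing), and 5 rose by Mll1-deleted day 2 (23.3%). In Mll1-deleted cultures 4 of 7 were lower than in wild-type cultures on day 0 (median -0.75, against -0.02 and 10.1%), 2 without mouse 489, 814, 818 or 870 and 1 without 862. On day 1 it was again 4 (median -0.73, against -0.03 and 7.45%), 2 without 489, 814 or 862 and 1 without 818 or 870. On day 2 it was 2 (median -0.28, against -0.03 and 8.74%), 1 without 489, 818, 862 or 870. The summed astrocyte markers lay between 10779 and 22239 on Mll1-deleted day 0 and 24316 and 26270 on wild-type day 0, and their part in the St18 difference was not tested. Of the 4 ependymal markers measured, 4 rose by wild-type day 4 (37.5% passing) and 3 by Mll1-deleted day 4 (29.6%), the days on which Myt1l was highest. Without mouse 858 the 3 became 2. Of the 5 endothelial markers limma called 0 on day 2 in either genotype, with summed intensities of 190 to 268 over the arrays, and Tek was near the floor in 3 groups.

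Over the 24 arrays, which share 6 mice and 4 days, Pearson's r of log2 intensity was 0.70 between St18 and Myt1, 0.57 between St18 and Myt1l and 0.62 between Myt1 and Myt1l. Within the 12 wild-type arrays these were 0.86, 0.43 and 0.66, and within the 12 Mll1-deleted arrays 0.70, 0.65 and 0.65. These values are descriptions and carry no test. No member was among the 5 genes most like another, out of 16645 genes with a mean above the floor.

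Among the 5 genes most like St18 were Dlx1as, an antisense transcript at Dlx1 (r = 0.91), the Sox1 overlapping transcript Sox1ot (0.90), Akna (0.89) and the giant muscle protein gene Neb (0.89). Dlx1as changed by 3.56 ± 0.41 to wild-type day 2 (adjusted p = 6.0e-07) and by 0.85 ± 0.41 to Mll1-deleted day 2 (adjusted p = 0.147). The genes most like Myt1 were Mapk8ip2, a scaffold of the JNK pathway (0.96), Fam189a2 (0.96), the LIM-only factor Lmo3 (0.96), Rufy3, an axonal protein (0.96), and Gm13735 (0.95). Lmo3 rose by 3.43 ± 0.37 in wild-type cultures (adjusted p = 2.4e-07) and by 3.16 ± 0.37 in Mll1-deleted ones (adjusted p = 3.4e-06) to day 2. Among the 5 genes most like Myt1l were Erich3 (0.96), the semaphorin receptor subunit Plxna4 (0.92), Csrnp3 (0.92) and the neuronal kinesin Kif5a (0.92). Plxna4 rose by 2.81 ± 0.23 to wild-type day 2 (adjusted p = 7.3e-09) and was at 0.60 ± 0.23 on Mll1-deleted day 2 (adjusted p = 0.063).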

How the data were processed

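RNA from cultures of 6 mice, each sampled on 4 days, was measured on 24 Affymetrix arrays. The deposited table gives 1 intensity per probe set and array, made by RMA with Affymetrix Power Tools, and mm9 is the build named, per the submitters' processing notes. Versions are not given in the sources used here. The deposited intensities run from 3.48 to 30298, so the table was read as linear, which is inferred from the values, and log2 was taken. Precision is limited by the number of arrays.

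Of 28350 probe sets, 22232 with exactly 1 symbol were used. Where a gene had several, the one with the highest mean was kept, leaving 21072 genes. Symbols of 2126 probe sets were updated through RefSeq. The floor is the mean lower quartile of the arrays, 24.6 to 27.2 over the groups.

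Changes over time, and their difference between genotypes, came from limma 3.58.1 (R 4.3.3) with 8 group means fitted to 24 arrays. Genotypes were compared on a day, and across samplings, with arrays of a mouse treated as correlated (duplicateCorrelation, consensus 0.165). For the comparison over all days, 6 mouse means were fitted. In all, 22 comparisons were made. The steps were tested on simulated data. The simulated noise was independent between arrays, without a mouse effect, so it does not check how the mouse was handled. Tables and figures were made with Python 3.11.15 and matplotlib 3.10.9.

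The arrays of a mouse are paired by its ID in the labels. The deviations from the group means of 2 arrays of 1 mouse had a median r over genes of 0.216 in wild-type mice (lowest 0.0266) and 0.31 in Mll1-deleted mice, against -0.123 and -0.143 between mice. Alternatives were a shift of arrays to 1 median, quantile normalisation, a filter at the floor, cross-hybridisation code 1 only, the mean of probe sets, log2 of the intensity plus 16, a robust trended variance, the mouse as a fixed effect or without a random effect, the 6 arrays compared, and leaving out each mouse. Recounts of the marker lists without a mouse or with the block were added after seeing the data. Named were the members, Kmt2a and Hes1, up to 3 genes of a list by the smallest p for wild-type day 2 and up to 3 for the difference in change to day 2, and the 5 genes most like each member, of which some are not reported here. Members, lists and tests were chosen with earlier results of these data known.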

Additional observations from a re-analysis of the deposited data

Results flagged for a closer look

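The change over time of St18 differed between the genotypes in the test of that difference. To day 1 the Mll1-deleted change was lower by -1.22 (log2), to day 2 by -2.14, and from day 2 to day 4 it was higher by 1.77. Only the difference to day 2 stayed called without any single mouse. Each wild-type mouse rose by 2.20 to 2.93 to day 2 and each Mll1-deleted mouse by 0.32 to 0.43.

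Myt1l differed in its change to day 2 by -0.99 and to day 4 by -0.77. The former was not called without mouse 489, 814 or 870, and leaving out any of the 6 mice lost the latter. To day 2 the Mll1-deleted mice changed by -0.12, 0.10 and 0.17, against 0.60 to 1.33 in the wild-type mice. Groups of 3 arrays are too small for a test of a single outlying sample.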

How the results depend on the processing

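Across 66 member results and 963 alternative values, 895 kept direction and side of the threshold, 44 lost a call, 24 gained one and 0 reversed a called direction. Of 30 called results, 19 kept the call under every alternative run. The causes of the changes below were not tested, apart from the fewer arrays in some settings.

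With the mouse as a replicate block, Myt1 was called for wild-type day 1 to 2 (1.23) and day 2 to 4 (-1.02) and Mll1-deleted day 1 to 2 (1.25), and Myt1l for the difference in change from day 1 to 2 (-0.90). It was run for the 45 member results on changes over time and changed no other call among them. No paired fit was possible for the genotypes on a day, across samplings or on mouse means, because each mouse has 1 genotype.

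Quantile normalisation lost St18 for the difference in change to day 1 (-1.14, adjusted p = 0.0504), Myt1l on Mll1-deleted day 4 (0.40) and Myt1l for Mll1-deleted day 2 to 4 (0.43), and called Myt1 for wild-type day 1 to 2 (1.29) and for genotype on day 2 (-1.08, adjusted p = 0.0487). A shift to 1 median lost St18 for the difference in change from day 2 to 4 (1.71) and Myt1l for Mll1-deleted day 2 to 4 (0.44), and called Myt1 for wild-type day 1 to 2 (1.18). With 16 added, St18 for the difference in change to day 1 (-0.93) and Myt1l for Mll1-deleted day 2 to 4 (0.39) were lost, and Myt1 for wild-type day 1 to 2 (1.19) was called. The filter at the floor also called the latter (1.23). With only the 6 arrays compared, Myt1 was called for wild-type day 1 to 2 (1.23) and day 2 to 4 (-1.02) and lost on Mll1-deleted day 1 (1.70, adjusted p = 0.101).

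Leaving out 1 mouse at a time gave these ranges where a call changed. For St18 they were 0.74 to 0.97 (wild-type day 4), 0.25 to 0.71 (Mll1-deleted day 4), -1.55 to -0.87 and 1.45 to 2.02 (difference in change to day 1 and from day 2 to 4) and -1.13 to -0.53 (Mll1-deleted day 2 against wild-type day 1). For Myt1 they were 1.15 to 1.32 and -1.10 to -0.92 (wild-type day 1 to 2 and 2 to 4), 0.97 to 1.50 (Mll1-deleted day 1 to 2), -1.71 to -0.64 and -1.44 to -0.84 (genotype on days 1 and 2), -1.66 to -0.68, -1.39 to -0.63 and 1.19 to 1.59 (difference in change to days 1 and 2 and from day 2 to 4), -0.77 to -0.28 (mouse means) and -0.88 to -0.54 (Mll1-deleted day 4 against wild-type day 2). For Myt1l they were 0.47 to 0.59 and 0.44 to 0.60 (Mll1-deleted day 4 against days 0 and 2), -1.21 to -0.84 and -0.90 to -0.58 (difference in change to days 2 and 4), -0.52 to -0.36 (mouse means) and -0.71 to -0.33 (Mll1-deleted day 4 against wild-type day 2). With 3 mice a group, standard errors of a change from day 0 were 0.16 to 0.37, which limits how small a change could be called.

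Counts of all genes called moved by over 1.5 times in 89 of 321 recounts. The replicate block raised them from 1045 to 1867 (wild-type day 1 to 2), 82 to 586 (Mll1-deleted day 1 to 2), 513 to 1031, 1012 to 1860 and 1229 to 2148 (difference in change to days 1, 2 and 4), 29 to 211 (day 1 to 2) and 6 to 118 (day 2 to 4). With only the 6 arrays compared, they went from 2610 to 679 (Mll1-deleted day 1), 82 to 0 by limma (Mll1-deleted day 1 to 2), 2132 to 1315, 1570 to 809 and 1361 to 773 (genotype on days 0, 1 and 4). Quantile normalisation took the 82 to 48, and the shift to 1 median took the 6 to 3. Leaving out 1 mouse moved 75 of 132 such counts by over 1.5 times, so the shares of genes passing in the report depend on the mice as well. In wild-type cultures they ran over the mice left out from 3554 to 5710 (all mice 5363) for day 0 to 1, 5114 to 7443 (all mice 7095) for day 0 to 2, 6096 to 8164 (all mice 7905) for day 0 to 4, 207 to 1462 (all mice 1045) for day 1 to 2 and 974 to 2954 (all mice 2563) for day 2 to 4. In Mll1-deleted cultures they were 1057 to 2427 (all mice 2610) for day 0 to 1, 3217 to 4826 (all mice 4916) for day 0 to 2, 4024 to 6294 (all mice 6231) for day 0 to 4, 5 to 203 (all mice 82) for day 1 to 2 and 1097 to 3062 (all mice 3136) for day 2 to 4. For genotype they were 1181 to 3018 (all mice 2132) for day 0, 830 to 2758 (all mice 1570) for day 1, 911 to 2259 (all mice 1842) for day 2, 675 to 1605 (all mice 1361) for day 4, 668 to 2592 (all mice 1539) for mouse means, 999 to 1928 (all mice 1766) for Mll1-deleted day 2 against wild-type day 1 and 1587 to 2655 (all mice 2823) for Mll1-deleted day 4 against wild-type day 2. For the difference in change they were 159 to 1451 (all mice 513) for day 0 to 1, 390 to 1690 (all mice 1012) for day 0 to 2, 421 to 2014 (all mice 1229) for day 0 to 4, 0 to 213 (all mice 29) for day 1 to 2 and 1 to 53 (all mice 6) for day 2 to 4.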
